A study of Ostreococcus tauri with 30 samples.

Results

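The comparison described here sets 3 libraries of Ostreococcus tauri taken 4 h after the lower of the 2 copper additions against the 3 control libraries of the same time, 6 of the 30 libraries of the series. Its members were chosen by the column labels of the deposited counts, and no measured value entered the choice. O. tauri is a marine picoalga, among the smallest free-living eukaryotes known, with a single chloroplast and mitochondrion. All cultures were of strain RCC745, grown with aeration in artificial seawater under 12 h light and 12 h dark, with 0.88 mM nitrate and 22 µM phosphate. The control cultures differed from the treated ones only in receiving no copper, as far as the labels say, and the lower-copper group is labelled 25 µM in the sample labels and 0.4 µM in the treatment protocol. The higher-copper group at 4 h, used below for the comparison of doses, is labelled 250 µM and 2 µM in the same places, so the groups are called lower and higher copper here, without a dose. The labels do not say whether the 3 replicates of a group were separate cultures, so the p-values measure the spread of these libraries only, and that spread may be technical.

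Copper is a cofactor of electron carriers in photosynthesis and respiration, among them plastocyanin and cytochrome c oxidase, and of some superoxide dismutases. In excess it binds thiols, displaces other metals and promotes the formation of reactive oxygen species. Algal cells are known to meet it with copper-exporting ATPases, with chelators such as glutathione and phytochelatins, and with antioxidant enzymes. Transcript levels were read as counts per gene, identified by locus tag, and as counts per KEGG module, a named set of gene families that form a pathway or a complex. The deposited files and the reference table used here give no functional description for the locus tags, so the genes below are named by tag and no role is given for them. Biological roles are described through the modules.

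The 6 libraries held 2622041 to 5042408 gene counts, against 2549094 to 5232257 over all 30. The control of replicate 3 at 4 h is in doubt. Its module counts were 20.05 times its gene counts and those of control replicate 3 at 1 h 6.055 times, whereas the other 28 libraries lay between 9.891 and 12.2. When the module columns of these 2 controls were exchanged, the ratios became 11.03 and 11.01. The labels of the 2 controls may thus be exchanged in 1 of the 2 tables, and the ratio does not tell which. Results are given with the labels as deposited, and with both controls left out or exchanged where that changes a call. Counts are relative to the total of each library, so they show neither a change in the number of cells nor a change in the total RNA per cell.

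At 4 h after the lower addition, edgeR called 18 of 7190 genes (0.25%) at an adjusted p under 0.05. Of these 13 rose (0.181%) and 5 fell (0.0695%). The rises were the larger changes, with log2 fold changes from 0.77 to 2.51 and a median of 1.47, and 11 of the 13 were at least 2-fold. The falls ran from −0.95 to −0.70, with a median of −0.79, and 0 of the 5 reached 2-fold. The 3 lower-copper libraries lay outside the range of the 3 controls in all 18 genes, as they did in 1940 of the 7190 genes tested (27%). Adjusted p-values lay between 0.0218 and 0.0486, close to the threshold, and 943 genes (13.1%) had an unadjusted p under 0.05.

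These calls depend on every library. With control replicate 3 of 4 h left out, edgeR called 0 genes (721 at an unadjusted p under 0.05; DESeq2 called 102 with all libraries). The count was also 0 without control replicate 1, control replicate 2 or lower-copper replicate 2, 1 without lower-copper replicate 3 and 9 without lower-copper replicate 1, of which 7 were among the 18. It was 0 with both doubted controls left out and 0 with their labels exchanged. The signs of all 18 genes were the same in every alternative tried, and the 18 were called by DESeq2 and in a fit of only these 6 libraries. As the groups did not overlap in these genes, leaving out 1 library could hardly reverse a sign. In the authors' deposited table of the same comparison, 368 of 7551 genes (4.87%) had an adjusted p under 0.05, and all 18 were among them with the same direction. These fits and that table reuse the libraries that chose the 18 genes, so their agreement is not independent support.

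**Figure D1:**
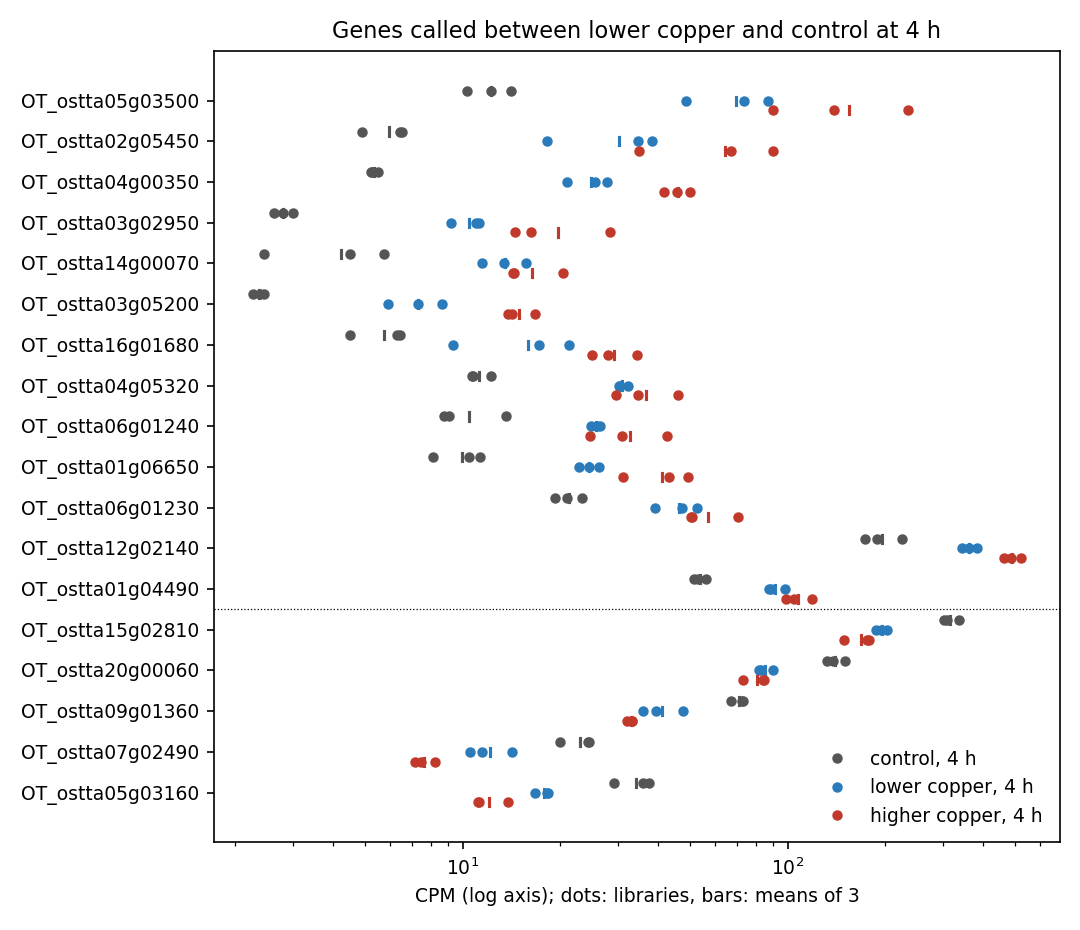
Transcript levels of the 18 called genes at 4 h, in CPM on a log axis, with 1 dot per library and a bar at the mean of 3; genes above the dotted line rose and those below it fell with lower copper. In each gene the 3 lower-copper libraries stand apart from the 3 controls, and the mean of higher copper lies beyond that of lower copper.

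The largest rise was that of OT_ostta05g03500. The controls held 14.1, 10.3 and 12.2 CPM (counts scaled to a common library total), the lower-copper libraries 48.7, 73.4 and 86.8 CPM. The lowest treated library was thus well above the highest control, and the gene rose 5.70-fold (log2 2.51 ± 0.51, SE; edgeR adjusted p = 0.0388), from 12.2 ± 1.89 to 69.6 ± 19.3 CPM (SD, n = 3). OT_ostta02g05450 stood at 6.43, 6.52 and 4.89 CPM in the controls and at 18.2, 34.6 and 38.2 CPM with lower copper. Replicate 1 was the lowest treated library for both genes, and neither gene's groups overlapped. OT_ostta02g05450 rose 5.03-fold (2.33 ± 0.42, edgeR adjusted p = 0.023).

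OT_ostta04g00350 was nearly level in the controls, at 5.48, 5.27 and 5.24 CPM, and reached 20.9, 25.6 and 27.9 CPM with lower copper. It rose 4.63-fold (2.21 ± 0.43, edgeR adjusted p = 0.0304), and its treated libraries lay closer together than those of the first 2 genes. OT_ostta03g02950 held 2.62, 3.01 and 2.79 CPM in the controls, from only 11, 12 and 8 reads. It held 11, 11.2 and 9.21 CPM with lower copper, from 41, 51 and 33 reads, and rose 3.71-fold (1.89 ± 0.32, edgeR adjusted p = 0.0218). The separation of its groups was clear, although its level in controls rests on few reads.

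With both doubted controls left out, the log2 fold changes of these 4 genes were 2.51, 2.22, 2.19 and 1.88, with edgeR adjusted p-values of 0.0859, 0.0624, 0.0624 and 0.053. With the labels exchanged they were 2.27, 2.12, 1.94 and 1.49, with adjusted p-values of 0.0675, 0.0675, 0.0675 and 0.0692. The direction and most of the size of each change were kept, and the calls were not.

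The other 9 genes that rose are named after their values were seen. OT_ostta14g00070, OT_ostta03g05200, OT_ostta16g01680 and OT_ostta04g05320 rose by log2 1.63, 1.61, 1.47 and 1.47. All 4 were low, with control means of 2.36 to 11.2 CPM. In OT_ostta16g01680 the treated libraries were the most uneven of the 4, at 9.37, 17.2 and 21.2 CPM against 6.43, 4.51 and 6.29 CPM in the controls. OT_ostta04g05320 was the most even, at 30.3, 30.4 and 32.4 CPM against 10.7, 10.8 and 12.2 CPM (edgeR adjusted p = 0.023).

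OT_ostta06g01240 and OT_ostta06g01230 neighbour each other among the tested genes on the RefSeq assembly of strain RCC4221, and both rose. OT_ostta06g01240 went from 9.05, 8.78 and 13.6 CPM to 24.9, 26 and 26.5 CPM (log2 1.32 ± 0.29, edgeR adjusted p = 0.0458). OT_ostta06g01230 went from 23.4, 19.3 and 21 CPM to 39.1, 52.7 and 47.4 CPM (1.13 ± 0.25, adjusted p = 0.0458). In both, every treated library was above every control, and control replicate 3, a doubted library, was the highest control of OT_ostta06g01240. How strand was treated in the counting is not stated, and reads of adjoining genes could be shared. OT_ostta01g06650 rose by log2 1.30 ± 0.27, from 9.96 ± 1.66 to 24.5 ± 1.73 CPM.

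The 2 most abundant genes that rose changed least. OT_ostta12g02140 held 173, 188 and 226 CPM in the controls and 344, 383 and 361 CPM with lower copper, a rise of 1.86-fold (0.89 ± 0.19, edgeR adjusted p = 0.0458). OT_ostta01g04490 held 51.7, 56.2 and 53.1 CPM against 89.2, 98.5 and 87.6 CPM, a rise of 1.71-fold (0.77 ± 0.17, adjusted p = 0.0458). In neither gene did a treated library come near the range of the controls.

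Among the genes that fell, OT_ostta05g03160 changed most. It stood at 37.4, 35.9 and 29.3 CPM in the controls and at 18.2, 18.3 and 16.7 CPM with lower copper, a fall to a 1.93-fold lower level (log2 −0.95 ± 0.21, edgeR adjusted p = 0.0458). OT_ostta07g02490 stood at 24.5, 24.3 and 19.9 CPM against 11.5, 10.6 and 14.2 CPM (−0.93 ± 0.20, adjusted p = 0.0458). In both, the doubted control was the lowest of the 3 controls and still above every treated library.

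OT_ostta09g01360 fell from 67.2, 72.5 and 73 CPM to 35.9, 39.4 and 47.7 CPM (log2 −0.79 ± 0.16, edgeR adjusted p = 0.0388). OT_ostta20g00060 fell from 150, 138 and 132 CPM to 89.96, 82 and 82.9 CPM (−0.72 ± 0.14, adjusted p = 0.0238). OT_ostta15g02810, named after its values were seen, fell from 310, 337 and 303 CPM to 194, 188 and 203 CPM (−0.70 ± 0.15, adjusted p = 0.0458). These 3 were the more abundant of the falls, and none of their treated libraries came within the range of the controls. All 5 genes that fell were already lower in the 4 h controls than in the controls at 0 h, as were 7 of the 13 that rose and 3375 of all 7190 genes (46.9%). For OT_ostta15g02810 the means were 501 CPM at 0 h, 317 CPM in the 4 h control and 195 CPM with lower copper, and for OT_ostta05g03160 51.6, 34.2 and 17.7 CPM.

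Just outside the threshold, at an edgeR adjusted p of 0.0503, lay 5 genes, of which OT_ostta08g01520 was by far the most abundant. It held 1414, 1491 and 1091 CPM in the controls and 2634, 3840 and 2321 CPM with lower copper, a log2 difference of 1.14 ± 0.26 without overlap. The other 4, OT_ostta08g00140, OT_ostta13g00610, OT_ostta12g01490 and OT_ostta05g00900, lay below the control by log2 0.68 to 1.13 in size. Just inside it, with an adjusted p of 0.0486, lay OT_ostta03g05200.

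**Figure D2:**
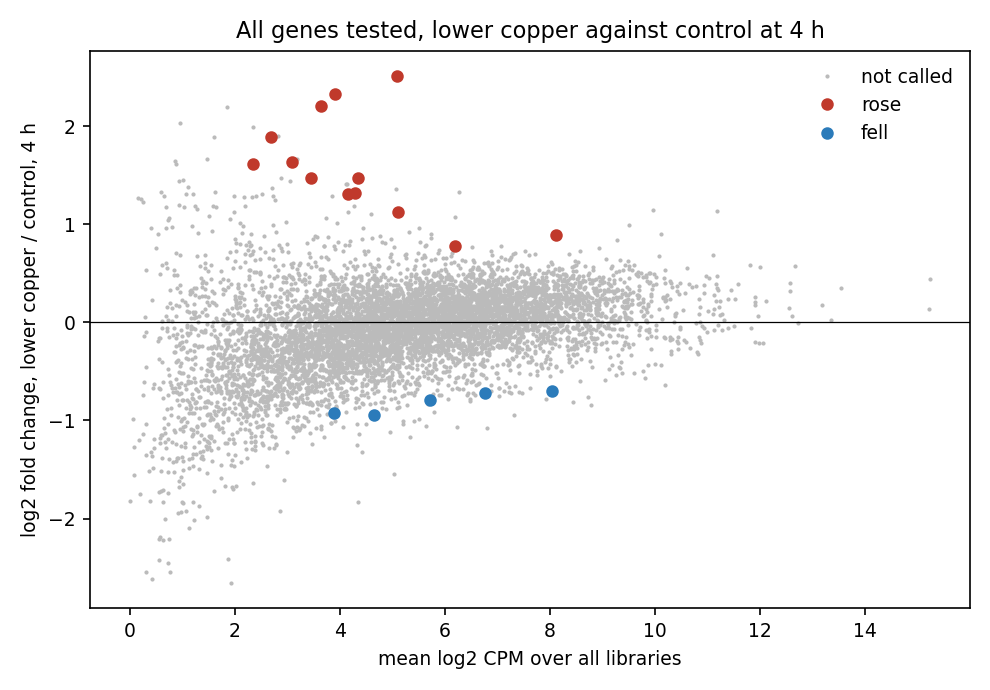
Log2 fold change of lower copper over control at 4 h against the mean log2 CPM over all libraries, for the 7190 genes tested (1 point per gene); genes that rose are red and those that fell are blue. No gene with a mean log2 CPM under 1 was called, other genes lie as far from 0 as the called ones, and at low levels more genes lie below 0 than above.

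Over all 7190 genes the median log2 fold change was −0.03, with 46.6% of genes above 0. The scaling of the libraries (TMM) assumes that most genes do not change. It sets the centre of these values near 0, so their balance is not a result. Differences of at least 2-fold, without a test, were found in 301 genes (4.19%), 71 higher (0.987%) and 230 lower (3.2%). Most of the lower ones were weakly expressed: 63 of the 230 had a mean log2 CPM under 1 and 132 one between 1 and 3, and 0 of these were called lower.

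The neighbours of the called genes on the reference assembly were examined for genes that changed together. A neighbour is here the nearest tested gene on either side, and genes that were not tested are skipped. The 13 genes that rose have 26 neighbours in all, of which 11 lay above the control (46.6% of all genes did), with a median log2 of −0.17. The only 2 called were OT_ostta06g01230 and OT_ostta06g01240 themselves. OT_ostta02g05440, beside OT_ostta02g05450, lay at 12.2 ± 3.93 CPM against 3.23 ± 0.775 CPM in the control (log2 1.90 ± 0.46, n = 3) and missed the threshold (edgeR adjusted p = 0.0657). Of the 10 neighbours of genes that fell, 9 lay below the control (53.4% of all genes did), with a median of −0.22. EdgeR called 0 of them (1 at an unadjusted p under 0.05, as were 13.1% of all genes). Some of these neighbours were weakly expressed, and such genes lay lower in general. Their median log2 was −0.39 at a mean log2 CPM of 1 to 3 and −0.14 at 3 to 5. Whether neighbours fell together was not tested.

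The same 18 genes were followed at 1 h and 12 h after the lower addition. By their deposited labels those libraries are outside the contrast that chose the genes, but they are in the 30-library fit and share its estimate of the spread. The 1 h controls include the doubted replicate 3, which may be exchanged with the 4 h control that helped choose the genes. The 1 h values are given with the labels as deposited. All 13 genes that rose at 4 h were above the control at 1 h, by log2 0.08 to 1.57 with a median of 0.47, against 49.6% of all genes above 0. At 12 h all 13 were above it again, by 0.18 to 2.04 with a median of 1.09, against 53.6% of all genes. The 5 genes that fell were below the control at both times, by a median log2 of −0.46 at 1 h and −0.35 at 12 h. EdgeR called 0 of the 18 at 1 h or 12 h. At an unadjusted p under 0.05 stood 7 of the 13 at 1 h (3.7% of all genes) and 11 of the 13 at 12 h (4.71%).

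All 3 lower-copper libraries were above all 3 controls for 9 of the 13 genes at 1 h (5.17% of all genes) and for 10 of the 13 at 12 h (2.89%). Of the 5 genes that fell, 1 was fully separate at 1 h (5.26% of all genes) and 2 were at 12 h (3.21%). The 3 fold changes of a gene are given side by side for 3 genes. OT_ostta16g01680 had a mean of 11.3 CPM with lower copper at 1 h and 15.9 CPM at 4 h, and at 1 h its libraries stood at 14.9, 8.60 and 10.6 CPM against 4.32, 3.16 and 3.93 CPM in the 1 h controls (log2 1.57 ± 0.33, beside 1.47 at 4 h). OT_ostta03g02950 was near the control at 1 h (0.08) and above it at 12 h (0.75). OT_ostta01g04490 was above it at 1 h (0.65) and near it at 12 h (0.18).

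At 12 h the lower-copper libraries spread widely. OT_ostta05g03500 stood at 148.7, 49.5 and 28.8 CPM in them, against 10.8, 24.1 and 20.3 CPM in the controls. Replicate 1 was the highest, and the same library was the highest of the 3 for OT_ostta02g05450, OT_ostta04g00350 and OT_ostta04g05320. The change of the lower-copper effect between times was tested directly. From 1 h to 4 h edgeR called 0 of 7190 genes (95 at an unadjusted p under 0.05; DESeq2 0), and from 4 h to 12 h 0 (292 unadjusted, 4.06%; DESeq2 0). Without lower-copper replicate 1 of 12 h the second count stayed at 0, with 1155 unadjusted. A difference in effect between these times was therefore not detectable, for OT_ostta03g02950 or any other gene, and the test does not show that the effects were equal.

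**Figure D3:**
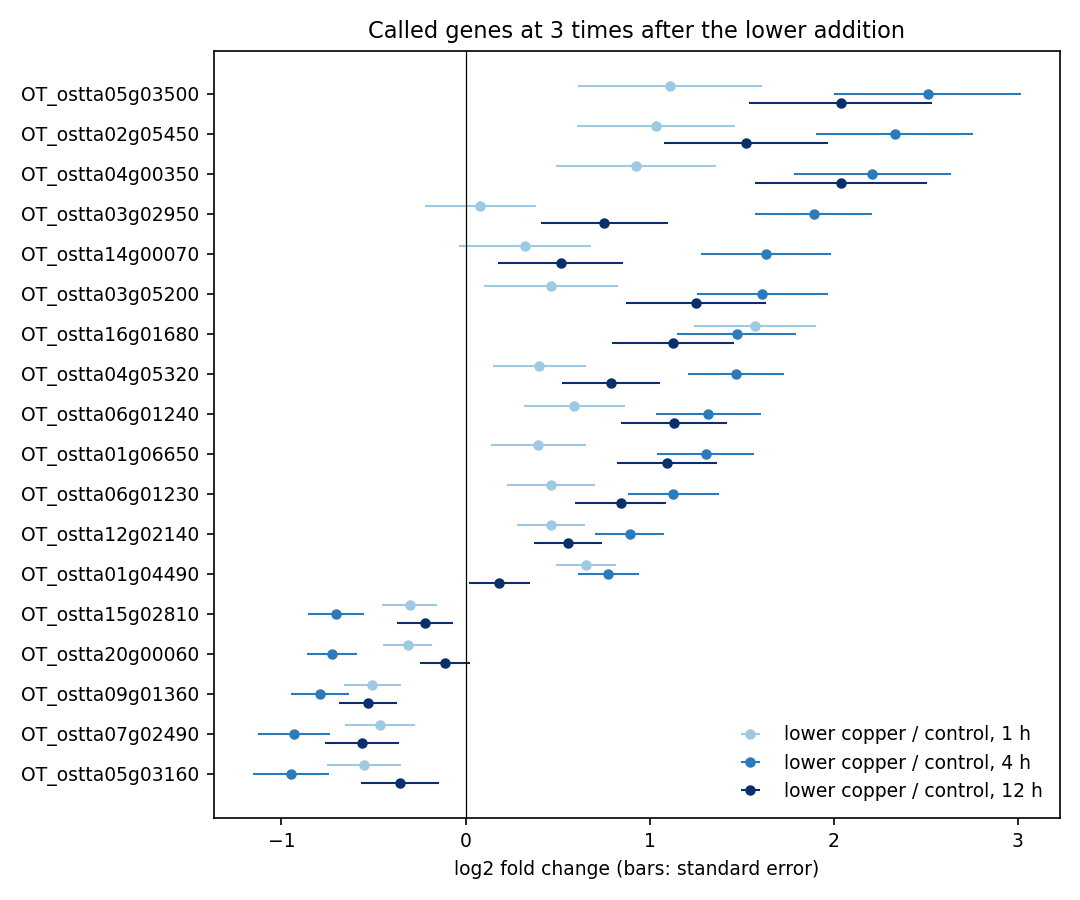
Log2 fold change of lower copper over the control of the same time for the 18 called genes, at 1, 4 and 12 h (dots), with bars of 1 standard error (derived from the test). Every dot of the 13 upper genes lies above 0 and every dot of the 5 lower genes below 0; the 4 h values chose the genes.

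The genes were also read in the higher-copper groups. At 12 h, in libraries outside the contrast though inside the same fit, all 13 genes that rose were above the control with higher copper (49.4% of all genes) and 11 of them were called (4.87% of all genes were called higher), by log2 0.27 to 3.05. All 5 that fell were below it and 2 were called (6.98% of all genes were called lower). At 4 h higher copper shares its controls with the comparison described here, so its values are only set beside it. OT_ostta05g03500 reached 235, 90.5 and 139 CPM, OT_ostta02g05450 90.5, 34.9 and 67.1 CPM and OT_ostta04g00350 50.1, 45.7 and 41.8 CPM. For OT_ostta04g00350 the 3 groups were separate from one another, whereas those of the 2 doses overlapped for OT_ostta02g05450 and nearly met for OT_ostta05g03500.

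In the other direction of the comparison, 350 genes rose and 502 fell with higher copper at 12 h. At 4 h after the lower addition 245 of the 350 lay above the control (70%, against 46.6% of all genes) with a median log2 of 0.14, and 282 of the 502 lay below it (56.2%, against 53.4% of all genes) with a median of −0.05. The shares of all genes are not matched for level. They include weakly expressed genes, which lay lower (median log2 −0.39 at a mean log2 CPM of 1 to 3, 0.08 over 5).

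Higher and lower copper at 4 h were also compared directly, in the same 30-library fit. Of 7190 genes edgeR called 5 as higher (0.0695%) and 7 as lower (0.0974%) with higher copper, and 1170 (16.3%) had an unadjusted p under 0.05. None of the 18 genes was among the 12. The lower-copper libraries of this comparison also chose the 18 genes, so it is no independent test of them and does not show equal doses. Their log2 differences of higher over lower copper ran from 0.22 to 1.15 in the 13 that rose and from −0.67 to −0.08 in the 5 that fell, and 8 and 2 of these stood at an unadjusted p under 0.05. With only the 6 libraries of both doses fitted, edgeR called 0 genes (1461 unadjusted), and the 12 had adjusted p-values of 0.11 to 0.133. The count of 12 also moved with single libraries, from 0 without lower-copper replicate 1 to 63 without lower-copper replicate 3.

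Of these 12, 3 are given here, named after their values were seen; lower copper lay at log2 0.49, 0.82 and −0.16 from the control in them and none passed that test. OT_ostta07g00240 held 4.02, 5.95 and 9.77 CPM with lower copper and 22.6, 14.3 and 21.3 CPM with higher copper (log2 1.56 ± 0.31, edgeR adjusted p = 0.0351), beside 4.71 CPM in the control. OT_ostta18g01100 held 13.1, 11.9 and 21.2 CPM against 44.3, 40.1 and 47.1 CPM (1.52 ± 0.27, adjusted p = 0.0127), beside 8.76 CPM. OT_ostta20g00035 was lower with higher copper, at 268, 251 and 250 CPM against 456, 457 and 416 CPM (−0.79 ± 0.14, adjusted p = 0.0127), beside 496 CPM in the control.

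No KEGG module passed the test at 4 h after the lower addition. EdgeR called 0 of 236 (16 at an unadjusted p under 0.05, 6.78%; DESeq2 called 0). Of the modules 120 lay above the control and 116 below, with a median log2 of 0.002, a balance that the scaling largely sets. In 32 (13.6%) the libraries of the groups did not overlap. A module count sums many genes, and 1 gene can be counted in several modules. The values below are levels and differences that did not pass, and the lists were chosen by module name.

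**Figure D4:**
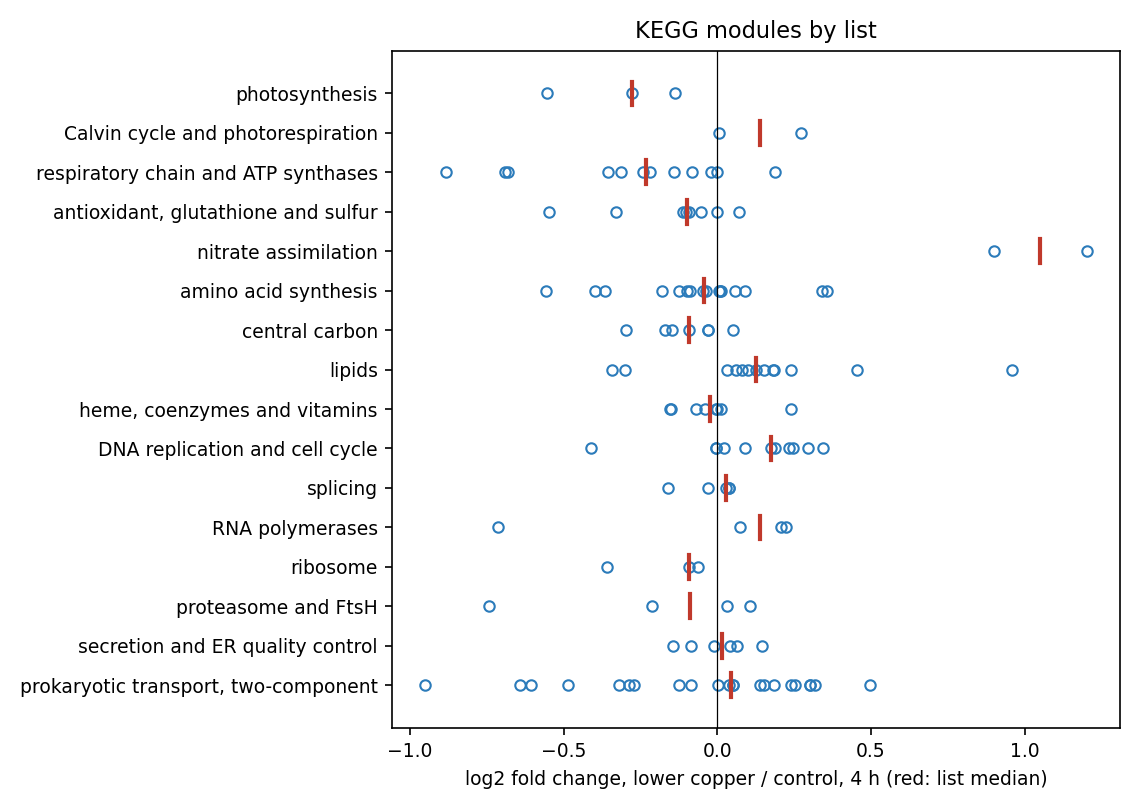
Log2 fold change of lower copper over control at 4 h for each KEGG module (circle), by list, with the median of the list in red. No module passed the test; the modules of photosynthesis and of the ribosome all lie below 0, and the 2 of nitrate assimilation lie at 0.90 and 1.20.

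In energy metabolism, where plastocyanin and cytochrome c oxidase work, levels lay mostly below the control. The libraries were of poly(A) RNA, so transcripts without a poly(A) tail may be poorly read. The values are thus not levels of whole complexes. The cytochrome b6f complex (M00162), which passes electrons to plastocyanin, stood at 10975, 10084 and 9299 CPM in the controls and at 7823, 8148 and 9059 CPM with lower copper (log2 −0.28 ± 0.17, edgeR adjusted p = 0.818). The groups did not overlap, but the doubted control was close to the highest treated library. Photosystem I (M00163) lay at −0.14 and photosystem II (M00161) at −0.56, both with overlap, so 3 of 3 modules of photosynthesis were below and 0 passed.

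Of 12 modules listed under respiratory chain and ATP synthases 10 were below the control, with a median log2 of −0.23. The list also holds the V-type ATPase (M00160), a proton pump, and modules for versions of the same complex (M00154 and M00155). The 12 are therefore not separate measures. Cytochrome c oxidase (M00154), the copper enzyme that reduces oxygen, held 1511, 1338 and 1044 CPM in the controls and 1134, 1039 and 1121 CPM with lower copper (−0.24 ± 0.18, edgeR adjusted p = 0.855), with overlap through the doubted control. The Calvin cycle (M00165), which fixes carbon dioxide, lay at 0.01. Photorespiration (M00532), which recycles what Rubisco forms from oxygen, lay at 30268, 33262 and 35587 CPM against 26197, 25475 and 30416 CPM (0.27 ± 0.099, adjusted p = 0.325), overlapping through the doubted control.

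Photorespiration was 1 of the 2 modules (0.847%) that edgeR called between the doses. It stood at 41700, 43920 and 46314 CPM with higher copper (log2 0.41 ± 0.099 over lower copper, edgeR adjusted p = 0.0405). The other was the cycle of C4 acids with NAD-malic enzyme (M00171), which moves carbon dioxide by way of these acids in plants. It held 4060, 4011 and 4350 CPM with lower copper and 5469, 5289 and 5682 CPM with higher copper (0.40 ± 0.097, adjusted p = 0.0405), beside 4030, 3613 and 4000 CPM in the controls. The lower-copper libraries of M00171 lay with the controls and apart from higher copper. Without the pair of doubted controls neither module passed (adjusted p = 0.0718 for each), and neither passed without any 1 of 5 of the 6 libraries.

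Modules of thiols and antioxidants lay 2 above and 6 below the control, with a median log2 of −0.10. The lowest was glutathione synthesis (M00118), which makes the thiol peptide that binds copper and is the precursor of phytochelatins. It held 1315, 1168 and 1036 CPM in the controls and 835, 734 and 838 CPM with lower copper, without overlap (−0.55 ± 0.17, edgeR adjusted p = 0.269). With both doubted controls left out it lay at −0.65 (adjusted p = 0.195) and with labels exchanged at −0.62 (0.0983). Synthesis of tocopherol (M00112), a lipid antioxidant, of beta-carotene (M00097) and of cysteine (M00021), a building block of glutathione, lay at −0.05, 0.07 and −0.10.

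Replication and cell cycle modules divided 8 above to 3 below, with a median log2 of 0.18. DNA polymerase alpha and primase (M00261), which start new strands, held 1380, 1483 and 1505 CPM in the controls and 1855, 1881 and 1805 CPM with lower copper (0.34 ± 0.10, edgeR adjusted p = 0.237). Polymerase epsilon (M00263), which copies the leading strand, lay at 0.30 and likewise did not overlap. The origin recognition complex (M00284), which marks where replication starts, lay the other way, at 2130, 2313 and 1814 CPM against 1518, 1483 and 1709 CPM (−0.41 ± 0.14, adjusted p = 0.302). Replication modules thus did not share a direction, and none passed.

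Of 13 lipid modules 11 lay above the control, with a median log2 of 0.13. The acyl-CoA synthesis step (M00086), which activates fatty acids, lay highest but for M00091, a module of only 4.86 and 9.43 CPM on average. It stood at 5266, 5296 and 6582 CPM in the controls and 7788, 8617 and 7113 CPM with lower copper (0.46 ± 0.14, edgeR adjusted p = 0.237). With both doubted controls left out it lay at 0.55 (adjusted p = 0.158) and with labels exchanged at 0.62 (0.0571). Elongation of fatty acids (M00083) lay at 0.18 without overlap.

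Nitrate assimilation (M00615), the uptake and reduction of nitrate, had the largest module difference, with libraries that did not overlap but were uneven. The controls held 3526, 2824 and 5046 CPM and the lower-copper libraries 6383, 5817 and 14024 CPM, so replicate 3 held more than the other two together. The difference was log2 1.20 ± 0.77 (edgeR adjusted p = 0.839). Reduction of nitrate to ammonia (M00531), which shares genes with it, lay at 0.90, with the same library highest at 17901 CPM. The list thus had 2 of 2 modules above the control, with a median of 1.05, and 0 passed.

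Amino acid synthesis was divided, 7 modules above and 9 below, with a median log2 of −0.04. Tyrosine synthesis (M00025) held 540, 515 and 575 CPM in the controls and 688, 685 and 690.7 CPM with lower copper (0.34 ± 0.10, edgeR adjusted p = 0.237), the tightest treated group among the modules described here. Isoleucine synthesis (M00570) lay at 0.36, with 2825, 2822 and 3832 CPM against 3878, 3848 and 4409 CPM. The doubted control nearly met the treated libraries there.

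**Figure D5:**
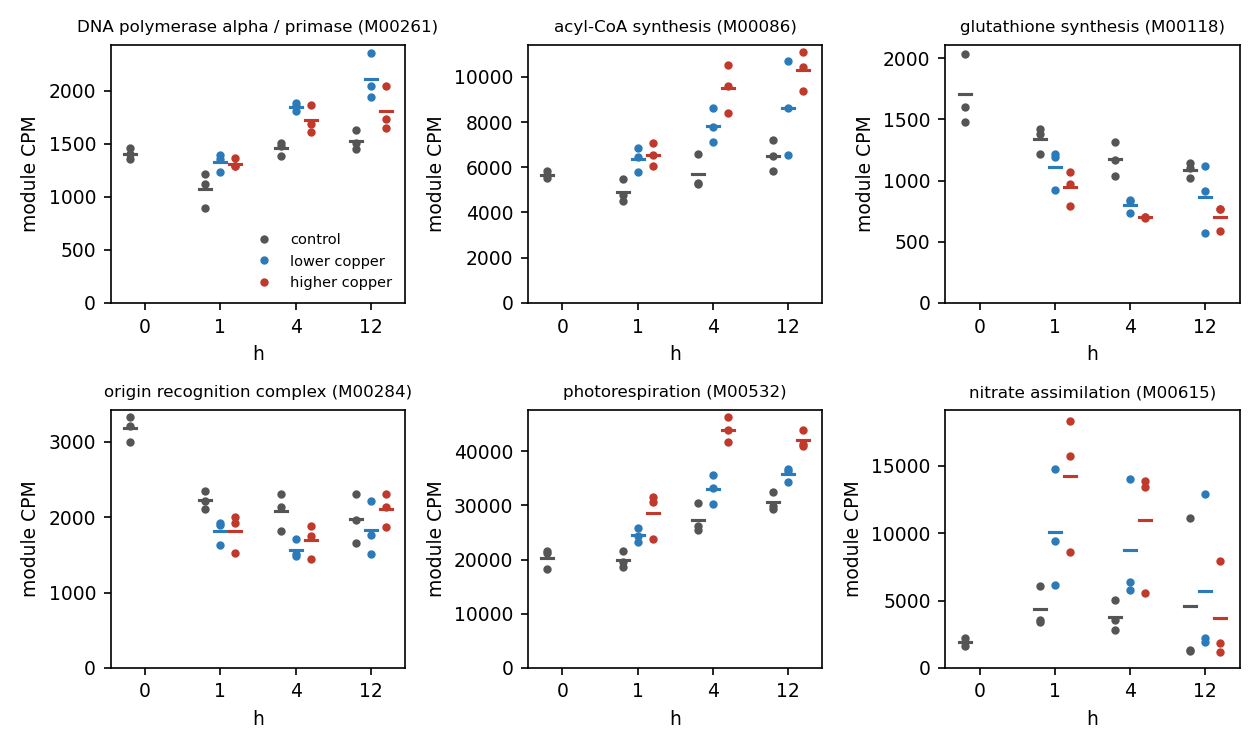
Levels of 6 KEGG modules in CPM of module counts at 0, 1, 4 and 12 h, with 1 dot per library, a bar at the mean of 3, and colours for control, lower and higher copper. At 4 h the lower-copper dots lie apart from the controls in all but photorespiration; no difference between lower copper and control at 4 h passed the test.

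The remaining lists had medians near 0, though single modules lay farther off, none of them passing: M00343 of the proteasome list at −0.74 (unadjusted p = 0.0244), M00183 of the RNA polymerases at −0.72 and M00254 of the prokaryotic systems at −0.95, all 3 weakly expressed. Central carbon metabolism had 1 module above and 6 below (median log2 −0.09), the ribosome 0 and 3 (−0.09), and proteasome and FtsH proteases 2 and 2 (−0.09). Heme, coenzymes and vitamins had 2 above and 6 below (−0.02), splicing 3 and 2 (0.03), RNA polymerases 3 and 1 (0.14), and secretion and ER quality control 3 and 3 (0.02). Of 22 modules of prokaryotic transport and two-component systems 13 lay above and 9 below (0.04). Their summed level was 1638 to 1838 CPM in the controls and 1606 to 1796 CPM with lower copper. These modules are prokaryotic by KEGG name only, and whether their counts come from other organisms was not tested. Between times the lower-copper effect on modules did not differ detectably, with 0 of 236 called by edgeR from 1 h to 4 h (6 at an unadjusted p under 0.05, 2.54%; DESeq2 0) and 0 from 4 h to 12 h (4 unadjusted, 1.69%; DESeq2 0).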

How the data were processed

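Poly(A) RNA of 30 libraries in 10 groups of 3 was sequenced as single reads of 50 nt on a HiSeq 2000 from stranded TruSeq libraries, per the labels' protocols. The authors deposited raw counts per gene and per KEGG module. No source used here gives the aligner, counting tool, strand setting or build. The authors' deposited table of the comparison holds mean normalised levels (signal), log2 fold changes and p-values; DESeq2 is named in the submitters' processing notes, without a version. Besides 7627 genes the table held 1 unnamed line with the numbers 1 to 30 (0.00038% of counts), which was left out. Of the 7627, filterByExpr kept 7190 and removed 437. EdgeR 4.0.16 (R 4.3.3, limma 3.58.1) fitted 10 group means with TMM scaling and its quasi-likelihood test, with 20 residual degrees of freedom. Modules were tested likewise without a filter. Benjamini-Hochberg adjustment ran over all genes or all 236 modules, with a threshold of 0.05, and tests are two-sided. The edgeR standard errors (SE) were derived from the test, as the size of the log2 fold change over the square root of F. CPM values are per TMM-scaled library, with SD over n = 3. CPM is not divided by gene length, so levels are compared within a gene.

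The alternatives were DESeq2 1.42.0, its size factors in edgeR, other filters, only the groups compared, a replicate block, each library left out, and both doubted controls left out or exchanged. The scripts were tested on simulated counts. Gene totals ranged from 2549094 to 5232257. Locus tags were matched to RefSeq, 7626 of 7627, for neighbours only.

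The genes named are the 4 largest rises and 4 largest falls among called genes without overlap whose mean log2 CPM reached 1, and the 2 modules of lowest p in each direction; others are said to be named after their values were seen, and further modules are examples of their lists. Members and lists were chosen with earlier results of these data known.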

Additional observations from a re-analysis of the deposited data

How the results depend on the processing

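For lower copper against control at 4 h, 18 genes were called; the count was 37 with a replicate block (23 higher, 14 lower), 102 with DESeq2 (55 and 47), 204 with only the groups compared (105 and 99), 0 with both doubted controls left out (737 at an unadjusted p under 0.05), 0 with their labels exchanged (602) and 0 to 9 with 1 library left out. DESeq2 size factors gave 17 and no filter 18. For higher against lower copper, 12 genes were called; the count was 7 with DESeq2 size factors, 7 with no filter, 24 with the block, 1.3e+02 (rounded; 46 higher and 83 lower) with DESeq2, 0 with only the groups compared and 0 to 63 with 1 library left out. For modules, 2 were called between doses; the count was 4 with the block, 13 with DESeq2, 0 with both doubted controls left out, 0 with labels exchanged, 0 with only the groups compared and 0 to 7 with 1 library left out. The cause was not tested. The alternatives were also tallied over 36 single results of genes and modules, among them all 12 genes called between the doses. Of these values 244 kept their direction and side of the threshold, 224 kept their direction and missed it, and 0 changed direction. The tests of modules for lower copper against control at 4 h, and of the change of the lower-copper effect between times for genes and modules, gave 0 calls in every alternative run. The biological coefficient of variation was 0.193 over 30 libraries and 0.139 over the 6, where 4 residual degrees of freedom remain. Same-numbered libraries of the 6 deviated together with correlations of 0.13, −0.172 and −0.0653, and 1 of 6 correlated best with its own number. The numbers were therefore not taken to pair the samples. This check covers only the 6 libraries, among them a doubted control. It cannot exclude that same-numbered libraries deviate together elsewhere in the series. Low counts limit the weakly expressed genes.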

Other observations

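The difference between lower copper and control at 4 h varied with the level of the gene. The median log2 fold change was −0.65 in the 174 genes with a mean log2 CPM under 1, −0.39 in the 1119 between 1 and 3, −0.14 in the 2177 between 3 and 5 and 0.08 in the 3720 over 5. The 1293 genes under 3 took 0.575, 0.675 and 0.65% of the counts in the controls and 0.406, 0.384 and 0.601% with lower copper, where replicate 3 overlapped the controls. With higher copper they took 0.536, 0.614 and 0.86%.

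By the chromosome number in the locus tag, chromosome 19 had the highest median log2 fold change, 0.26 over 55 genes with 67.3% above 0, and 0 of its genes were called. Chromosome 20 had the lowest, −0.16, with 23.5% of its genes above 0, and holds OT_ostta20g00060, which fell. Chromosomes 19 and 20 also differed in the level of their genes, with a median log2 CPM of 6.52 and 4.72. Chromosomes 2 and 14 had levels of 6.32 and 4.7 and median log2 fold changes of 0.098 and −0.065. At 12 h after the lower addition the median log2 fold changes of chromosomes 19 and 20 were 0.010 and 0.096. No test was made of these chromosome medians, and whether they follow from the level of the genes was not tested.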
